A study of Mus musculus with 4 samples.

Results

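The cytosolic ribosomal protein genes were followed across 4 mouse RNA samples, each hybridised once to a 1-colour Agilent whole-genome array. Members were the probes whose gene name in the files was that of a 60S or 40S ribosomal protein (Rpl or Rps and a number, with or without a final a, x or l, the stalk genes Rplp0, Rplp1 and Rplp2, and Rpsa). The name alone chose them, and S6 kinases were left out. This gave 130 of 41174 probes and 78 of 27953 gene names, of which 46 encode proteins of the large (60S) and 32 of the small (40S) subunit. Of the 130 probes, 129 had a value on every array, 121 were well above background on all 4 arrays, 5 on some and 3 on none. All 78 genes were among the 20002 tested, which had to be well above background on at least 1 array, and 77 were well above it on all 4. The exception was Rpl3l.

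Of the samples, 3 were neural progenitor cell (NPC) lines, cultured cells able to form neurons and glia: NS21 and NSEB5-2C of strain 129/Ola and NS195R of strain 129/Sv, each derived from a separate embryonic stem cell line. The fourth, Mixture, was Swiss Webster RNA pooled in equal mass from 6 organs (heart, kidney, thymus, spleen, liver and lung) and the day 11 embryo, whose age is the only one stated. The study used Mixture to find genes at least 1.5-fold higher in the lines. Its source label names a doxycycline-treated NPC line instead, but markers of the pooled organs were bright in it: liver albumin (Alb) had a log2 level of -7.05, -7.20 and -7.17 in NS21, NS195R and NSEB5-2C, against 8.51 in Mixture. Of 8 neural progenitor markers, NS21 had 6 well above background, NS195R 8, NSEB5-2C 7 and Mixture 7, so this count did not separate the lines from Mixture. Sox2, which defines this cell type, was not well above background in NS21 (log2 level -5.11, against 2.68 in NS195R and 0.87 in NSEB5-2C), and neither was the progenitor lipid-binding protein gene Fabp7. Cell type and strain cannot be told apart here, and neither can fewer cells of a type and less RNA per cell. Each line is 1 array, so the spread over the lines holds line differences together with technical error, and the single Mixture array is assumed to vary like them.

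Every ribosome holds a single copy of nearly all of these proteins, built around ribosomal RNA in the nucleolus, and cells that grow and divide spend much of their transcription on making them. Their messages are short and abundant, and many begin at a C followed by a run of pyrimidines, the 5′ terminal oligopyrimidine (TOP) tract, through which mTOR signalling controls their translation. A few members have paralogs restricted to a tissue or state, among them Rpl3l of heart and skeletal muscle and Rps27l, a target of p53.

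Promoters of 57 of the 78 members were present in the RefSeq promoter table (build GRCm38.p6), which gives 250 bases before and 50 from each annotated start. A C followed by at least 5 further C or T letters, beginning within 10 bases of a listed start on the transcript strand, was found for 31 of the 57 (54.4%), against 21.9% of 27025 genes. The same letters on the other strand were found for 8.77% of the members, against 25.2% of all genes. The motif CCGGAAG, on either strand anywhere in the 300 bases, was found for 40.4% of the members, against 9.93% of all genes. The 80 bases around the start (50 before, 30 from it) are printed for members that carry results below, 5′ to 3′ on the transcript strand, with that pyrimidine run in capitals. Rps6 and Rpl31 stood apart from the other members, Rpl14 was among the highest in the lines, Rps27 and Rps27l are a paralog pair, and Rpl3l was the member not well above background in 2 lines.
Rps6: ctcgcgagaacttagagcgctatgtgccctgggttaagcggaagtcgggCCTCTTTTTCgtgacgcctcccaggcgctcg
Rpl31: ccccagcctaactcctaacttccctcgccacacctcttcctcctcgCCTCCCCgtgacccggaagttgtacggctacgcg
Rpl14: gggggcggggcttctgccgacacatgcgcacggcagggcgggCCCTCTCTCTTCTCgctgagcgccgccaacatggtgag
Rps27: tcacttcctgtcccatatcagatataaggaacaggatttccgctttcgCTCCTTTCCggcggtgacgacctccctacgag
Rps27l: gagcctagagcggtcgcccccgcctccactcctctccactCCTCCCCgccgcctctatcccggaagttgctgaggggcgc
Rpl3l: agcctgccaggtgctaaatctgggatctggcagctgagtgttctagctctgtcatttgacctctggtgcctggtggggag
These windows lie at chr4:86857338-86857417 (minus strand) for Rps6, chr1:39367801-39367880 (plus) for Rpl31, chr9:120571467-120571546 (plus) for Rpl14, chr3:90213619-90213698 (minus) for Rps27, chr9:66946036-66946115 (plus) for Rps27l and chr17:24727776-24727855 (plus) for Rpl3l; for the last 2 genes, each with 2 listed starts, the start listed earlier is shown. The run was 10 letters long in Rps6, 14 in Rpl14, 9 in Rps27 and 7 in Rpl31, and no such run was in the printed Rpl3l window. For Rps27l, 7 letters are in capitals, but the letters ct just before them continue the run beyond the 10 bases searched. Without Rpl3l and Rps6, the median log2 ratio of the NPC lines to Mixture was 0.82 over the 30 members with a run and 0.89 over the 25 without, so the members with and without the letters lay close together.

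Most members were modestly higher in the NPC lines than in Mixture, by about as much as the typical detected gene. Levels are log2 of the processed signal minus the array's 75th percentile, and ratios are differences of those levels. The median member ratio was 0.82 (quartiles 0.62 and 1.14). Over all 20002 genes tested the median was 0.44. Over the 12802 genes well above background on all 4 arrays it was 0.71, a 1.63-fold shift of that set of genes, with quartiles -0.14 and 1.37. Relative to that shift the members stood at 0.11. All 3 lines lay above Mixture for 74 of the 78 members, against 57.5% of the 12802 genes, and at least 1.5-fold above it for 53, against 38.1%. The size of the ratio was also more even among members: its SD was 0.45 over the 76 members other than Rpl3l and Rps6, and 1.54 over the 12802 genes.

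The limma test over all genes tested called 1 member higher (Rpl31), where 0.92% of all genes were called higher, and 1 lower (Rpl3l), where 8.86% were called lower. At an unadjusted p under 0.05, 22 members were higher (15.6% of all genes) and 1 lower (15.3%). The share of members past the adjusted threshold was thus near that of all genes for higher calls and below it for lower ones. With an intensity trend in limma's prior, 17 members were called higher, where 2.31% of all genes were, and 1 lower, where 9.05% were. The brighter members had the smaller ratios: across the 76 members Spearman's rho between mean signal and ratio was -0.49, while over 3704 other genes in the same signal range it was -0.01. These are descriptions across genes on the same 4 arrays.

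**Figure D1:**
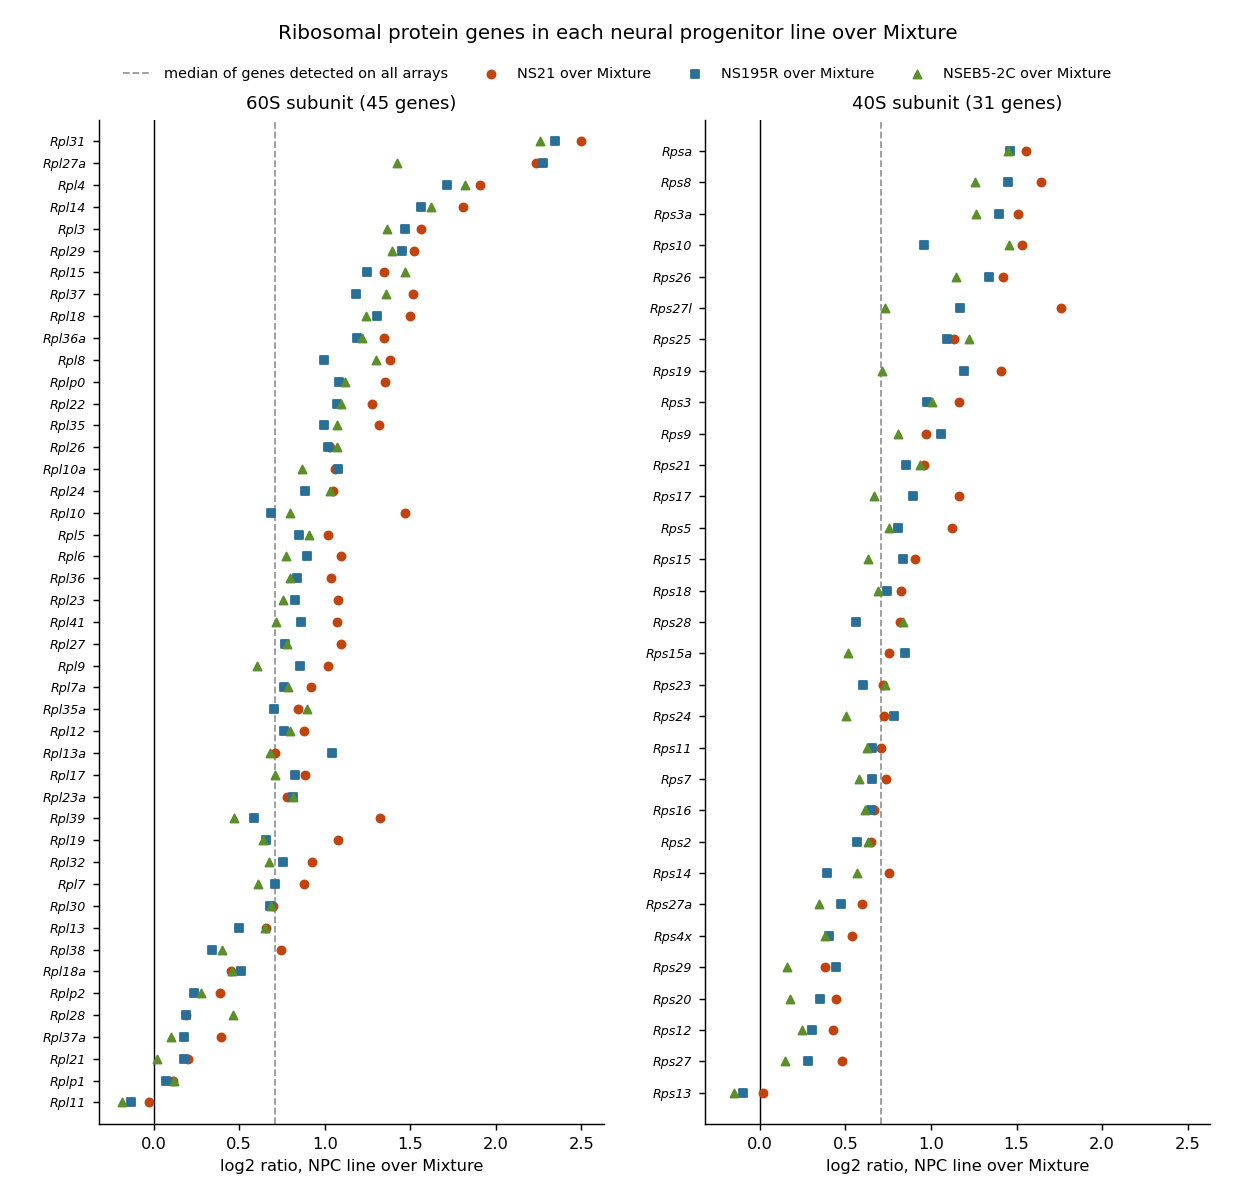
Log2 ratio of each NPC line to Mixture (horizontal axis) for 76 ribosomal protein genes, ordered by their mean ratio within each subunit. Circles are NS21, squares NS195R and triangles NSEB5-2C. The dashed line marks the median of 0.71 over genes detected on all arrays. Rpl3l and Rps6 are left out as off this scale; nearly all points lie right of 0, and NS21 is often the rightmost.

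Of the 60S proteins, 45 other than Rpl3l had a median log2 ratio of 0.88, and 35 of them were at least 1.5-fold higher in all 3 lines. Rpl31, which sits at the rim of the tunnel through which the new protein leaves, had the largest ratio. NS21 had a log2 level of 3.08, NS195R of 2.93 and NSEB5-2C of 2.84, against 0.58 in Mixture. The lines lay within 0.24 of each other and all far above Mixture, and the mean ratio was 2.37 (SE 0.35, 5.16-fold, limma adjusted p = 0.0495, higher in 3 of 3 lines). A second Rpl31 probe gave ratios of 2.50, 2.24 and 1.89. Over the alternative settings the adjusted p by limma ranged from 0.012 to 0.171. Rpl31 passed the threshold with normexp background correction, without a filter on dim genes and with an intensity trend, and missed it under the other 6 settings run (0.0502 to 0.121) and whenever a line was left out.

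Rpl4 and Rpl3, core proteins of the 60S subunit that reach toward the exit tunnel and the peptidyl transferase centre, were also high in the lines. Rpl4 had levels of 4.66, 4.47 and 4.58 in NS21, NS195R and NSEB5-2C, against 2.76 in Mixture, a mean ratio of 1.81 (SE 0.35, limma adjusted p = 0.078). Rpl3 had 7.29, 7.20 and 7.09 in the lines, against 5.73 in Mixture, a mean ratio of 1.46 (SE 0.35, adjusted p = 0.105 by limma). Neither passed the threshold, although for each the 3 lines lay together above Mixture. Rpl14 gave 3.13, 2.88 and 2.94 in the lines, against 1.32 in Mixture (mean ratio 1.67). Rpl27a gave 4.86, 4.90 and 4.04 in the lines, against 2.62 in Mixture (mean ratio 1.98), with NSEB5-2C below the other lines.

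Rpl5 and Rpl11 enter the subunit together with 5S RNA and, when free of the subunit, bind the p53 regulator Mdm2. They differed in ratio. Rpl5 had 8.22, 8.04 and 8.10 in NS21, NS195R and NSEB5-2C, against 7.19 in Mixture, a mean ratio of 0.93 (SE 0.35). Rpl11 had 7.08, 6.97 and 6.92 in the lines, against 7.10 in Mixture, so that all 3 lines lay just below it (mean ratio -0.12, SE 0.34). Rpl11 was the lowest 60S member by ratio after Rpl3l, and its ratio was 0.64 when arrays were scaled to their medians. The difference between the genes was not tested.

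Rplp1 and Rplp2, stalk proteins that recruit the elongation GTPases, were among the members least different between the lines and Mixture. Rplp1 had levels of 8.17, 8.13 and 8.17 in NS21, NS195R and NSEB5-2C, against 8.05 in Mixture (mean ratio 0.10, SE 0.34). Rplp2 had 8.20, 8.05 and 8.09 in the lines, against 7.81 in Mixture (mean ratio 0.30, SE 0.34). The probe named Rplp0 had 5.79, 5.52 and 5.55 in the lines, against 4.44 in Mixture (mean ratio 1.18, SE 0.36). It was the 1 probe of 128 with a position from each source that the array annotation placed on another chromosome (8) than RefSeq's gene (5). The probes for the RefSeq transcript of Rplp0 carry its older name Arbp and so fall outside the members. The brighter by mean gave 7.95, 7.96 and 7.96 in the lines, against 7.91 in Mixture, a ratio of 0.05. The other gave 8.17, 7.83 and 7.95 in the lines, against 6.83 in Mixture, a ratio of 1.16. Probes of this 1 gene, each well above background on all arrays, thus disagreed on whether the lines and Mixture differed.

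Other members with small ratios were Rpl21 (2.07, 2.04 and 1.89 in NS21, NS195R and NSEB5-2C, against 1.86 in Mixture) and Rpl37a (8.47, 8.26 and 8.18 in the lines, against 8.08 in Mixture). A dimmer Rpl21 probe, also well above background on all arrays, gave a mean ratio of 3.13. Rpl38, whose loss in mice alters translation of Hox messages, had 7.997, 7.59 and 7.65 in the lines, against 7.25 in Mixture (mean ratio 0.50, SE 0.39). Each was higher in 3 of 3 lines, and none passed limma.

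The 31 proteins of the 40S subunit other than Rps6 had a median log2 ratio of 0.74, and 18 of them were at least 1.5-fold higher in all 3 lines. Rpsa, the small-subunit protein also described as a laminin receptor, was the highest. Its levels were 5.98, 5.88 and 5.87 in NS21, NS195R and NSEB5-2C, against 4.42 in Mixture (mean ratio 1.49, SE 0.34). The lines lay within 0.11 of each other. A dimmer Rpsa probe, also well above background on all arrays, gave larger ratios of 2.60, 2.43 and 2.93 in NS21, NS195R and NSEB5-2C. Rps13 was the lowest, with 7.33, 7.22 and 7.17 in the lines, against 7.32 in Mixture, and the lines lay on both sides of Mixture. Rps19, mutated in human Diamond-Blackfan anaemia, had 7.76, 7.54 and 7.06 in the lines, against 6.35 in Mixture (mean ratio 1.11, SE 0.46). A dimmer probe for the RefSeq transcript of Rps19, also well above background on all arrays, gave ratios of 2.23, 1.88 and 1.50. X-linked Rps4x had 7.43, 7.30 and 7.27 in the lines, against 6.89 in Mixture (mean ratio 0.44, SE 0.35). No 40S member passed the adjusted threshold.

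Paralogs behaved differently from one another. Rpl3l, the form of Rpl3 found in heart and skeletal muscle, had log2 levels of -7.30, -5.99 and -5.07 in NS21, NS195R and NSEB5-2C, against 2.23 in Mixture. It was well above background in NSEB5-2C and Mixture alone. With the lowest detectable signal of the array as a floor where its own signal was lower, Mixture was at least 156-fold above NS21 and at least 172-fold above NS195R, and it was 158-fold above NSEB5-2C. Limma called Rpl3l lower (adjusted p = 0.036, lower in 3 of 3 lines), a call lost with quantile normalization and when any 1 line was left out (limma adjusted p up to 0.110). Markers of heart, an organ of the pool, moved the same way. Of Myh6, Myl7 and Nppa, NS21 had 1 well above background, NS195R 1 and NSEB5-2C 0, against 3 in Mixture, and their summed linear level relative to the array's 75th percentile was 0.0254 to 0.195 in the lines, against 318.04 in Mixture. Their part in the Rpl3l result was not tested. Rpl3 itself was higher in the lines, as given above.

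Rps27l, the p53-responsive paralog of Rps27, had levels of 7.03, 6.44 and 6.002 in NS21, NS195R and NSEB5-2C, against 5.27 in Mixture. NS21 stood highest, and the mean ratio was 1.22 (SE 0.57, limma adjusted p = 0.258). Rps27 had 7.70, 7.50 and 7.37 in the lines, against 7.22 in Mixture (mean ratio 0.30). Rpl39l, a paralog of Rpl39 best known from testis, is listed under an older name outside the members and was well above background in Mixture only. It had -7.11, -7.21 and -7.23 in the lines, against -2.29 in Mixture, which was at least 7.24-fold above the mean of the lines (limma adjusted p = 0.012). A second Rpl39l probe gave -7.17, -7.22 and -7.16 in the lines, against -3.53 in Mixture. The members Rpl39 and Rpl36a were bright on every array.

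Rps6 set NS21 apart from the other lines. Rps6 is the 40S protein phosphorylated by S6 kinase downstream of mTOR, a common readout of growth signalling. NS21 had a log2 level of -1.02, NS195R of 6.03 and NSEB5-2C of 5.87, against 4.86 in Mixture. The background-subtracted processed signals were 117.9, 16422 and 13584, against 7521. NS21 alone was low, while the other lines were above Mixture by 1.16 and 1.01. NS21 was 118-fold below the nearer of the other lines. This was the gap of rank 2 among the 12802 genes, of which 4.23% were at least 2-fold below both other lines in NS21. The limma comparison of NS21 with the other lines gave an unadjusted p of 0.0023 and an adjusted p of 0.712, with 1 array on the NS21 side. The mean ratio to Mixture of -1.24 (SE 3.61) was set by NS21 and is 1.09 without that line.

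The Rps6 value rests on 1 spot of 1 probe per array. That spot was not flagged as an outlier, not saturated and well above background on all 4 arrays. The other probe named Rps6 lies 18687 bases away, farther than the RefSeq gene length of 3269 bases. It was not well above background in any line, with levels of -7.10, -7.24 and -7.24, against -3.24 in Mixture, and so gives no second reading of Rps6 in NS21. The neighbouring genes did not show a gap of that size: Dennd4c and Acer2, on either side of Rps6, differed by -0.44 and 0.04 in NS21 from the mean of the other lines. Among the 8 nearest genes on each side, 8 were well above background on all arrays and ranged from -1.83 to 0.26, against -6.97 for Rps6.

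**Figure D2:**
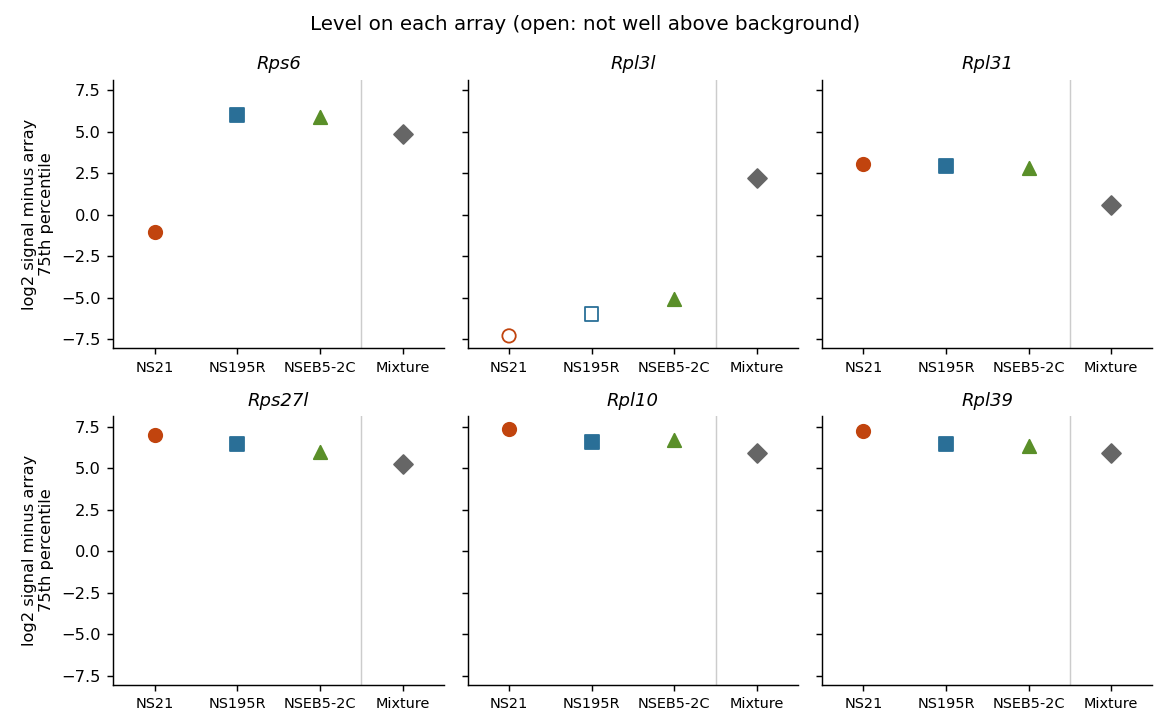
Log2 level (signal minus the array's 75th percentile) on each array for 6 members, with the 3 NPC lines left of Mixture; open symbols are not well above background. Rps6 is low in NS21 alone (-1.02), Rpl3l is low in all 3 lines, and Rpl31 is about equal in the lines (2.84 to 3.08) and lower in Mixture (0.58).

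Apart from Rps6 and Rpl3l, the lines differed little from one another in these genes. The distance from the highest to the lowest line had a median of 0.25 over the 78 members, 0.84 over the 12802 genes and 0.66 over the 3704 other genes in the same signal range. All 3 lines lay within 0.5 of each other for 70 of 76 members (92.1%), against 36.1% of those 3704 genes. The largest distance among the 76 was 1.03, for Rps27l. The smallest were those of Rpl30 (5.05, 5.03 and 5.04 in NS21, NS195R and NSEB5-2C) and Rpl23a, which lies where the signal recognition particle docks at the exit tunnel (7.77, 7.81 and 7.81). The 3704 genes lie between the lowest and the highest mean signal of the 76 members (1.96 and 8.78). Neither their spread within that range nor their probe design was matched to the members. The part of each in the difference was not tested. Over all 12802 genes, 27.0% had the lines within 0.5.

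**Figure D3:**
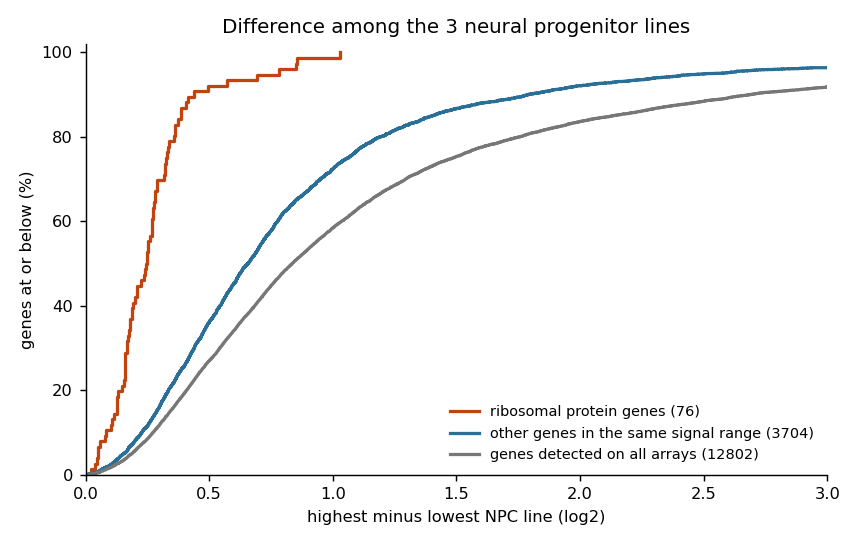
Percentage of genes (vertical axis) whose highest and lowest NPC line differ by no more than the log2 distance on the horizontal axis. At 0.5 the curve of the 76 ribosomal protein genes stands at 92.1% and that of 3704 other genes in the same signal range at 36.1%; the axis ends at 3, beyond which some genes of the lower curves lie.

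Small differences between lines ran mostly one way. NS21 was the highest line for 59 of the 78 members, against 35.8% of the 12802 genes, and NSEB5-2C was the lowest for 43, against 34.3%. Over Mixture, NS21 had a median member ratio of 0.96, NS195R of 0.83 and NSEB5-2C of 0.74. Limma called no member in any line (0.0% of all genes in NS21), and at an unadjusted p under 0.05 there was 1 member in NS21, where 5.72% of all genes passed, 0 in NS195R (10.5%) and 0 in NSEB5-2C (5.84%). Since the members of a line share 1 array, its scaling acts on all of them, and its part was not tested.

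In NS21, Rps27l, Rpl10 and Rpl39 exceeded the nearer of the other lines by 1.5-fold or more, as did 10.3% of the 12802 genes. Rpl10, which joins the 60S subunit late and completes it, had 7.39, 6.61 and 6.72 in NS21, NS195R and NSEB5-2C, against 5.92 in Mixture. Rpl39, a small protein of the exit tunnel, had 7.22, 6.48 and 6.37 in the lines, against 5.90 in Mixture. Rpl10 and Rpl39 lie on the X chromosome. The other X-linked members had smaller gaps: NS21 exceeded the mean of the other lines by 0.15 for Rpl36a and Rps4x, by 0.72 for Rpl10 and by 0.80 for Rpl39, and the median over the 72 other members was 0.15. In NSEB5-2C, Rpl27a lay 1.5-fold or more below the nearer line, as did 12.8% of the 12802 genes. These members depended on the processing: Rps27l did not reach 1.5-fold with normexp, Rpl10 with median scaling or quantile normalization, Rpl39 with quantile normalization, and Rpl27a with median scaling or the mean of probes. In turn, Rps10 reached it with median scaling, and Rpl22 and Rps20 with the mean of probes.

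Several probes were present for 38 of the 78 genes, at most 4 for a gene. In no gene did 1 probe lie 1.5-fold or more above Mixture and another as far below it. In 34 genes at least 2 probes were well above background on all arrays, and in 32 of them every such probe had a positive mean ratio. The probes agreed within 0.5 for 19 of the 38 genes. They differed by over 2 for 9 of the 38: Rpl11, Rpl13, Rpl21, Rps6, Rps12, Rps13, Rps15a, Rps18 and Rps24. Of the 34 genes, 6 did so. The gaps of Rps6, Rps15a and Rps18 rest on a probe not well above background on every array. With the lowest detectable signal as a floor for Mixture, the dim probe was at least 3.60-fold higher in the lines for Rps15a and at least 6.77-fold for Rps18, so the size of those gaps is uncertain.

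In these genes the dimmer probe had the larger ratio, Rps6 excepted. Rps12, whose bright probe had a mean ratio of 0.33, had -0.47, -0.44 and -0.79 in NS21, NS195R and NSEB5-2C on its dim probe, against -4.59 in Mixture, a ratio of 4.02. Rpl11 had -0.41, -0.51 and -0.76 in the lines on its dim probe, against -2.54 in Mixture, a ratio of 1.97 where the bright probe gave -0.12. The dim probe of Rps13 gave 2.78 where the bright one gave -0.08. These dim probes were designed on cDNA or EST records and not on the RefSeq transcript. For Rpl21 and Rps15a both probes name RefSeq transcripts. The kept Rpl21 probe, whose RefSeq record has no current symbol, gave 0.13. The other, whose record has the current symbol Rpl21, gave 3.13.

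Over the 44 other probes well above background on all arrays, every ratio was positive, with a median of 1.29. The 20 less than 2 log2 units dimmer than the kept probe differed from it by a median of 0.02 (-0.42 to 0.52). The 14 at least 4 units dimmer differed by a median of 1.23 (-0.34 to 3.70). By design source, the median difference was 0.08 for 32 RefSeq probes and 1.34 for 12 others. With normexp background correction no gene had probes that differed by over 2. Its offset of 50, added before the log was taken, itself narrows the ratios of dim probes. Brightness, design source and background correction moved together with the disagreement, and their separate parts were not tested. For Rpl22, a 60S protein needed for T cell development, the kept probe gave 1.28, 1.07 and 1.10 in the lines and the other gave 1.60, 2.14 and -0.80.

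**Figure D4:**
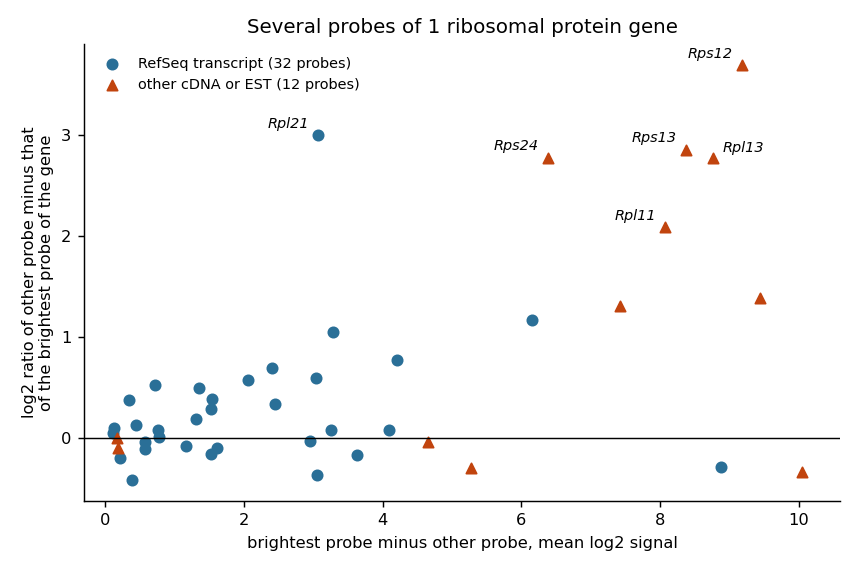
For 44 further probes of genes with several, the log2 ratio of that probe minus that of the gene's brightest probe (vertical axis) against how much dimmer it is (horizontal axis, mean log2 signal). Circles are probes for RefSeq transcripts and triangles those for other cDNA or EST records; the 6 probes above 2 are labelled by gene, and near-equally bright probes lie close to 0.

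Ratios varied among proteins of the ribosome that the name rule does not reach, from 0.24 to 1.57 over those named in this paragraph. The files list Rpl34 under an older name, with 7.97, 7.76 and 7.73 in NS21, NS195R and NSEB5-2C, against 7.03 in Mixture (mean ratio 0.79). Fau, whose ribosomal protein is made fused to a ubiquitin-like protein, had a mean ratio of 0.24. Rack1, the scaffold on the 40S head, had 0.47. The paralogs Rpl22l1 and Rpl7l1 had 1.50 and 1.57. None of the genes named in this paragraph passed limma. Rpl39l, given above and also outside the name rule, was called lower (limma adjusted p = 0.012).

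Genes that build ribosomes stood higher in the lines than the ribosomal proteins did. Of 54 ribosome assembly genes, 53 were measured; the median ratio of the 52 detected on every array was 2.20, against 0.82 for the members and 0.71 for all such genes. At an unadjusted p under 0.05 by limma, 40 were higher and 1 lower, where 15.6% and 15.3% of all genes were. After adjustment none was higher and 1, Imp4, was lower, where 0.92% and 8.86% of all genes were. Imp4, an assembly factor of the small subunit, was not well above background in the lines, whose mean was at least 2.42-fold below Mixture (limma adjusted p = 0.021, lower in 3 of 3 lines). Gnl3 (nucleostemin) had 2.50, 2.14 and 3.13 in NS21, NS195R and NSEB5-2C, against -0.88 in Mixture (mean ratio 3.47, limma adjusted p = 0.059). Wdr75 and Tsr1, also assembly factors, had mean ratios of 3.17 and 2.96. By line, NS21 had a median of 2.12 over this list, NS195R of 1.69 and NSEB5-2C of 2.62, so its order over lines differed from that of the members, where NS21 was highest.

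RNA polymerase I, which makes the large ribosomal RNA precursor, had 14 measured genes with a median ratio of 1.41. Of them 8 were higher at an unadjusted p under 0.05 by limma (15.6% of all genes were) and 0 lower (15.3%), with no adjusted call. Its subunit Polr1b had the largest ratio, 2.95. The median was 1.21 over the 34 genes of the translation factor list detected on every array. The largest ratios were those of Eef1e1 (2.89), grouped here by its name, Eif2s1 (2.24) and the helicase Eif4a1 (2.15). At an unadjusted p under 0.05 by limma, 16 of 35 measured were higher (15.6% of all genes were). Eef1a2, the elongation factor form of neurons and muscle, was called lower, as were 8.86% of all genes. Eef1a2 was not well above background in any line, and the mean of the lines was at least 95.8-fold below Mixture (limma adjusted p = 0.025). Other messages with a TOP tract had a median of 0.86 over 19 genes, close to the members, ranging from -0.998 to 2.24 for Npm1. Mitochondrial ribosomal proteins, which serve the ribosome inside mitochondria, had a median of 0.67 over 75 genes, of which 12 were higher (15.6% of all genes were) and 0 lower by the unadjusted p, with no adjusted call. No test was made between lists, and the lists share some genes.

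**Figure D5:**
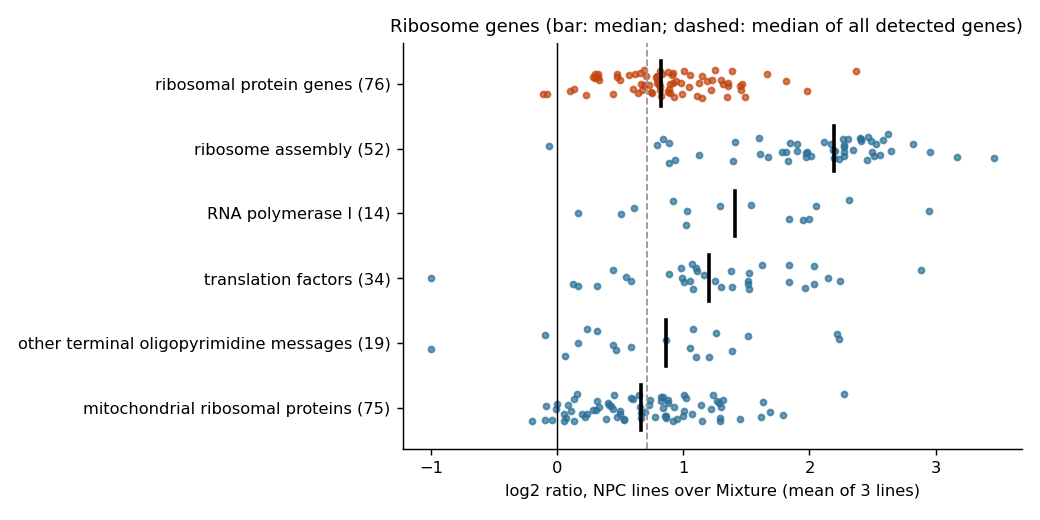
Mean log2 ratio of the 3 NPC lines to Mixture (horizontal axis) for each gene well above background on all arrays, by list; the bar is the median and the dashed line the median of 0.71 over all such genes. Ribosome assembly genes centre on 2.20, ribosomal protein genes without Rpl3l and Rps6 on 0.82 and mitochondrial ribosomal proteins on 0.67; vertical scatter within a list has no meaning.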

How the data were processed

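Per the file headers, the authors' intensity values come from Agilent Feature Extraction 9.5.3.1, with background subtracted and quality flags set; the submitters' processing notes name the same software. The deposited value table held the same intensity at all 45018 features (largest difference 0), and had 0 columns of other samples. Total RNA (0.25 ug per array) was labelled with Cy3. All 4 arrays lay on 1 slide from 1 scan, so no batch could be tested. Their number limits the precision.

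From the log2 processed signal of each spot, the array's own percentile 75 (231.9 to 258.5 across arrays, over 43379 non-control spots) was subtracted. Outlier-flagged spots were left out, spots of a probe averaged, and the probe with the highest mean kept per gene name. The 20002 genes well above background on any array were fitted with lmFit and eBayes of limma 3.58.1, under R 4.3.3 (two-sided, threshold 0.05 after Benjamini-Hochberg adjustment). NPC lines were compared with Mixture (2 residual degrees of freedom) and each line with the others. The line fits had fewer residual degrees of freedom, since Mixture was a group of its own and the spread came from the other pair of lines only. The code was tested on simulated data. Alternatives were median scaling, quantile normalization, normexp (offset 50), other filters and probe choices, an intensity trend, current symbols and leaving out lines.

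Genes were named for a paralog name, the stalk and Rpsa, the 6 largest and 6 smallest ratios, calls, disagreeing probes, a 2-fold line gap, dimness or a known role, and in lists the 3 largest ratios and calls; Rpl10, Rpl22, Rpl23a, Rpl30, Rpl34, Rpl36a, Rpl39, Rpl39l, Rps27 and the low-ratio list genes were named after their values were seen. Members and lists were chosen with earlier results of these data known. Of the 78 kept probes, 75 name a RefSeq transcript and 74 have a current symbol, 1 of them other than the file's name (Rps3a, now Rps3a1). For the array's probe positions the sources used here name no build. Promoter sequences are from RefSeq, GRCm38.p6. An item withheld for evaluation is not reported here.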

Additional observations from a re-analysis of the deposited data

Results flagged for a closer look

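For Rps6, the lines moved to opposite sides of Mixture: NS21 had a log2 ratio of -5.88, NS195R of 1.16 and NSEB5-2C of 1.01. On the other probe of Rpl22, NS21 had 1.60, NS195R 2.14 and NSEB5-2C -0.80, while the kept probe was above Mixture in all 3 lines. Each line is 1 array. For Rps6, the limma comparison of NS21 with the other lines gave an unadjusted p of 0.0023 and an adjusted p of 0.712; whether lines lie on opposite sides of Mixture was not tested for either probe.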

How the results depend on the processing

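The count of called members was 2 as reported, 1 with the mean of probes or median scaling, 0 with quantile normalization and with genes well above background on all 4 arrays, 4 without a filter, 6 with every probe on its own, and 18 with normexp and with an intensity trend; it was 0 without any 1 of the lines. Of 20002 genes, 972 were called higher and 1994 lower with normexp, and 462 and 1810 with the trend. No gene of any kind was called without any 1 line or with genes well above background on all 4 arrays, so a count of 0 there says nothing about the members. The median ratio was 1.57 with median scaling, 0.97 with the mean of probes, otherwise 0.78 to 0.92. Relative to the shift of genes well above background on all arrays it was 0.11 with median scaling, 0.27 with normexp and 0.30 with the mean of probes. It was positive in all others run (from 0.07 with quantile normalization). Members 2-fold from both other lines were Rps6 alone (1) with normexp, and genes with probes over 2 apart numbered 0 there, where the offset narrows the ratios of dim probes. Ratios changed sign for Rpl11 (0.64 with median scaling, 0.93 with the mean of probes), Rps13 (0.67 and 1.35), Rpl21 (-0.15 with quantile normalization) and Rps6 (-2.43 to 1.09 without a line, positive without NS21). Median scaling subtracts 1 value per array, so it moved every ratio by the same amount. The mean of probes takes in the dim probes, which had ratios of 1.97 for Rpl11 and 2.78 for Rps13. Why the scalings and the probes differ was not tested. Rpl31 had an adjusted p by limma of 0.012 to 0.171 and Rpl3l of 0.0038 to 0.110 over the alternatives; each was lost without any 1 line, Rpl3l also with quantile normalization (0.0525), and Rpl31 also with quantile normalization, median scaling, current symbols, the mean of probes, every probe on its own and genes well above background on all 4 arrays (0.0502 to 0.121). No paired analysis was possible because Mixture has 1 array. Signal over background limits Rpl3l and the dimmest probes.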

Other observations

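Growth regulators that act on ribosomal protein messages differed between lines by a median of 0.60 from highest to lowest, against 0.25 for the members and 0.84 for the 12802 genes well above background on all arrays. Myc, a transcription factor that raises ribosome production, had log2 levels of 2.51, 3.26 and 3.11 in NS21, NS195R and NSEB5-2C, against 0.41 in Mixture (mean ratio 2.56, higher in 3 of 3 lines, SE 0.49, adjusted p = 0.078 by limma). Its relative Mycn had 1.57, -3.83 and -1.14 in the lines, against -1.70 in Mixture. Eif4ebp1, the translation repressor that mTOR inactivates, had 5.87, 3.54 and 5.81 in the lines, against 3.64 in Mixture, and was low in NS195R. The S6 kinase gene Rps6kb1 had 0.38, 1.22 and 0.87 in the lines, against -0.56 in Mixture. Mtor itself had a mean ratio of 0.22 and Larp1, which binds TOP messages, 1.38. Of 14 measured genes of this list, 3 were higher at an unadjusted p under 0.05 by limma (15.6% of all genes were), and none passed limma after adjustment. The median ratio was 0.99.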
